A study of Mus musculus with 5 samples.

Results

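The genes described here are 10 receptors of natural killer (NK) cells: Klra1, Klra4, Klra5, Klra8, Klrb1a, Klrb1c, Klre1, Klrk1, Klrd1 and Ncr1. They were taken by name from the 18767 genes of the deposited count table, and all 10 had a row. Each was followed over the authors' 17 cell clusters and over the 5 libraries. Each library holds live CD45+ (immune) cells of the thyroid, from NOD.WT mice aged 4 to 6 weeks, a strain prone to autoimmunity. The mice of the series were male and female, and transcripts that differ by sex are given by library below. ICI mice (16 in all, 4 libraries) received immune checkpoint inhibitor antibodies, clone RPM1-14 against PD-1 together with clone 9D9 against CTLA-4, at 10 mg/kg per dose. Isotype mice (10 in all, 1 library) received control antibodies (clones 2A3, MPC11). Both were injected repeatedly for 4 weeks. Mice were pooled, and how many went into each library is not given. The libraries are called ICI 1 to ICI 4 and isotype.

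NK cells weigh activating against inhibitory signals from surface receptors, and most of these receptors belong to the C-type lectin-like family of the NK gene complex. The Ly49 proteins are dimers that read classical class I molecules, and each NK cell switches on only some of the Ly49 genes. Klra1 (Ly49A) and Klra5 (Ly49E) encode inhibitory members, whereas Klra4 (Ly49D) and Klra8 (Ly49H) encode activating members that signal through the adaptor Tyrobp. Ly49H is known for binding a protein of mouse cytomegalovirus. Klrd1 (CD94) pairs with NKG2 proteins to read the non-classical molecule encoded by H2-T23, and Klrk1 (NKG2D) binds stress-induced class I-like ligands and signals through Hcst. Klrb1a and Klrb1c (NK1.1) encode NKR-P1 receptors, Klre1 encodes an NKG2-like receptor, and Ncr1 encodes NKp46, an immunoglobulin-like receptor that marks NK cells and related innate lymphoid cells. Klrk1 and Klrd1 are also found in activated CD8 T cells.

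In the GENCODE annotation of build mm10, 9 of the 10 genes lie on chromosome 6 within 1.78 Mb, from 128609227 to 130386874, where the 4 Ly49 genes span 0.488 Mb. Ncr1 lies apart on chromosome 7, from 4337724 to 4345164 on the + strand. RefSeq windows of 300 bases around the start site (250 before, 50 after; build GRCm38.p6, the same sequence as mm10) were found for 9 members, all but Klrd1. The 6 printed here belong to the genes whose library patterns stood apart (Ncr1, Klrk1) and to the 4 Ly49 genes, which are compared with each other below. Their positions are chr7:4337465-4337764 (+ strand) for Ncr1, chr6:129623815-129624114 (- strand) for Klrk1, and, all on the - strand, chr6:130067222-130067521 for Klra4, chr6:130129849-130130148 for Klra8, chr6:129913175-129913474 for Klra5 and chr6:130386825-130387124 for Klra1. Each is written 5′ to 3′ on the gene's strand. Capitals mark every match, on either strand, to 3 short motifs: GGTGTG (T-box), TGTGGT (RUNX) and AGGAAG (ETS).
Ncr1: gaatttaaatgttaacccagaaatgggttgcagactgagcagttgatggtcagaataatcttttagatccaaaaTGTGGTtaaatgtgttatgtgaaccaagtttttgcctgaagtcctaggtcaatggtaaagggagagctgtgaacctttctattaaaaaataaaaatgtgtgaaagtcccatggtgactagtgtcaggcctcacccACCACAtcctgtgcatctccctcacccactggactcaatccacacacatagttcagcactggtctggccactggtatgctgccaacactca
Klrk1: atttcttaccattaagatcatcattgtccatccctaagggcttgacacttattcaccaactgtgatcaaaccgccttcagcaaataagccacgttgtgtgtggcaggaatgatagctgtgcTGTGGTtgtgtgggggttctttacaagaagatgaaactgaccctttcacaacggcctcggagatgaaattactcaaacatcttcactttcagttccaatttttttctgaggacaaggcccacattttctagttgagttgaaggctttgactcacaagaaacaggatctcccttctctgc
Klra4: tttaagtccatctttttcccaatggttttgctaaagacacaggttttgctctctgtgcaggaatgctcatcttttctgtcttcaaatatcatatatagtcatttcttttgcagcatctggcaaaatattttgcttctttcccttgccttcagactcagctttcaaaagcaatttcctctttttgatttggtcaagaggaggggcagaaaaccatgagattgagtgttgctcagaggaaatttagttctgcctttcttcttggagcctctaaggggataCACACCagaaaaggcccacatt
Klra8: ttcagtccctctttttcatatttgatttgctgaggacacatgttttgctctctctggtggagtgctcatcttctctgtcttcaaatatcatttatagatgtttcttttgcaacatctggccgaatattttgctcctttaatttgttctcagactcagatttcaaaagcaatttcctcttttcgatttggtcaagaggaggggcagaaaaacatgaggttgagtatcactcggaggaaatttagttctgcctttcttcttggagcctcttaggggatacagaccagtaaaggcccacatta
Klra5: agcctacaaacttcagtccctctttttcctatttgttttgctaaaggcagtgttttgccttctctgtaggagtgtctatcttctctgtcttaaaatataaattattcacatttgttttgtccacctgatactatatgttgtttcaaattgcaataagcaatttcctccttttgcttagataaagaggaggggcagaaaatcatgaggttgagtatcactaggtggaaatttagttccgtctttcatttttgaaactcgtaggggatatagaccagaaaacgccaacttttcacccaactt
Klra1: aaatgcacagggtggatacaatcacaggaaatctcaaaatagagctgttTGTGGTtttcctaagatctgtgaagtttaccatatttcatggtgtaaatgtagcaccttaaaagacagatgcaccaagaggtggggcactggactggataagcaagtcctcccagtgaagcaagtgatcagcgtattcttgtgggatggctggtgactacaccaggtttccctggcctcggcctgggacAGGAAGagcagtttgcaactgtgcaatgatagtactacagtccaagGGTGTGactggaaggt

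The RUNX letters stood in 6 of the 9 member windows, against 16.8% of the 32851 windows in the table. T-box letters stood in 2 of 9 (19.0% of all windows) and ETS letters in 3 of 9 (35.4%). Ncr1 held 2 RUNX matches and Klrk1 held 1, and neither held a T-box or ETS match. These matches describe letters in a window and not bound sites. The promoter windows of the activating genes Klra4 and Klra8 were 86.3% identical, and those of Klra5 and Klra8 75.3%. Klra1 was the least alike, at 48% to 51% identity with the other 3. Coding sequences ordered differently: Klra1 and Klra4 were the closest pair at 88.7%, and Klra1 and Klra8 the most distant at 77.7%. Of all 90-base stretches of the member transcripts, 16.1% in Klra8, 11.5% in Klrb1c and 1.08% in Klrb1a also occurred in another gene, and 0 did so in the other 7 members. Counts of Klra8 and Klrb1c are therefore uncertain where reads fall in those stretches. Ly49 gene content also differs between mouse strains, and mm10 is the C57BL/6J sequence while these mice were NOD. UMIs listed under a Ly49 gene, Klra4 and Klra8 among them, may therefore come from a related NOD gene, and the names and roles of the Ly49 members here are those of mm10.

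The count table held 1523, 1219, 1163 and 5018 cells in ICI 1 to ICI 4 and 1352 in isotype, with 3858251 to 32296759 unique molecular identifiers (UMIs, counted transcript molecules) per ICI library and 8130081 in isotype. Median depth per cell ranged from 1753 UMIs (ICI 1) to 4321 (ICI 4), with 3621.5 in isotype. ICI 4 and isotype stood apart from ICI 1 to ICI 3. Xist, a transcript of female cells, was found in 56.9%, 22.4% and 23.04% of cells of ICI 1 to ICI 3, in 0.0797% of ICI 4 and in 0 of 1352 isotype cells, which allows a share of up to 0.222%. Eif2s3y, a transcript of male cells, was found in 4.53%, 17.6%, 19.3% and 42.7% of cells of ICI 1 to ICI 4 and 37.7% of isotype. By these transcripts the groups were not balanced for sex, and the part of sex in the results was not tested. The red cell globin Hbb-bs had 26385 UMIs in ICI 4 and 3218 in isotype, and 0 in each of ICI 1 to ICI 3. ICI 2 and ICI 3 shared 140 cell barcodes, while any other pair of libraries shared at most 12. The labels do not say whether ICI 1 to ICI 3 came from separate pools of mice or from parts of the same pool. Counts of libraries, SDs and p-values below treat them as separate, and they may not be independent.

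All 10 genes had their highest level in cluster 8. Levels are given as CPM, UMIs of a gene per 1000000 UMIs of the summed cells, averaged over the libraries with at least 20 cells in a cluster. The authors' clusters were built from the expression of these same cells, so these levels are a description with no test. Cluster 8 held 42, 95, 94 and 167 cells in ICI 1 to ICI 4 and 76 in isotype. From a list of 12 NK genes that contains none of the 10 receptors, 12 were at 1.5-fold or more over all other cells, and Gzmb and Xcl1 were among the cluster's 10 leading genes. Of 10 general T cell genes, 0 reached 1.5-fold, but that count cannot show that T cells were absent. It was also 0 in clusters 3 and 12, where 99.8% and 99.7% of cells held a UMI of Cd3d, Cd3e or Cd3g. These genes encode the T cell receptor's signalling chains. In cluster 8, 84.6% of cells held such a Cd3 UMI, and 78.5% did so when each cell was thinned to 1000 UMIs. That lies well above the thinned share in B-like cluster 14 (16.5%), macrophage-like cluster 7 (24.6%) or type 2 innate lymphoid-like cluster 10 (32.8%), and below the 97.8% of gamma-delta or type 17 T-like cluster 6. A gamma-delta receptor transcript (Trdc, Tcrg-V6 or Trdv4) was found in 226 of the 474 cells of cluster 8 (47.7%). Trdc alone was found in 16.7%, 33.7%, 36.2% and 49.1% of cluster 8 cells of ICI 1 to ICI 4 and 39.5% of isotype. Trdc is a constant region gene, and its transcript does not by itself show a rearranged receptor. Cd3e stood at 1241, 1720, 2072 and 1010 CPM in cluster 8 of ICI 1 to ICI 4, and 880 in isotype. Over all cells it stood at 1247, 1646, 1728 and 1168 CPM in ICI 1 to ICI 4, and 968 in isotype. Cluster 8 is called NK-like here on the NK list, with those shares and levels beside it. The list is not particular to cluster 8. In cluster 1, where 96.4% of cells held a Cd3 UMI, 9 of the 12 genes were at 1.5-fold or more. Of the 10 leading genes of cluster 1, 2 were on the list.

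Among the 4 Ly49 genes, Klra5 averaged 480 ± 266 CPM in cluster 8 (SD, n = 5 libraries), Klra4 297 ± 162, Klra1 198 ± 42.9 and Klra8 67.9 ± 30.0. In the NKR-P1 pair, Klrb1a averaged 179 ± 13.7 CPM and Klrb1c 95.02 ± 14.0. Klrd1 averaged 465 ± 177, Klre1 252 ± 82.2, Klrk1 697 ± 411 and Ncr1 1142 ± 694. Levels of different genes are not compared here, since capture of each transcript is unknown. For 9 of the 10 genes the lowest library of cluster 8 lay above the highest library of the next cluster. Klrk1 was the exception: its lowest cluster 8 value, 195 CPM, fell inside the range of cluster 13 (0 to 408 CPM over 3 libraries). Below cluster 8, neighbouring clusters overlapped in range for every gene among the 5 highest clusters.

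**Figure D1:**
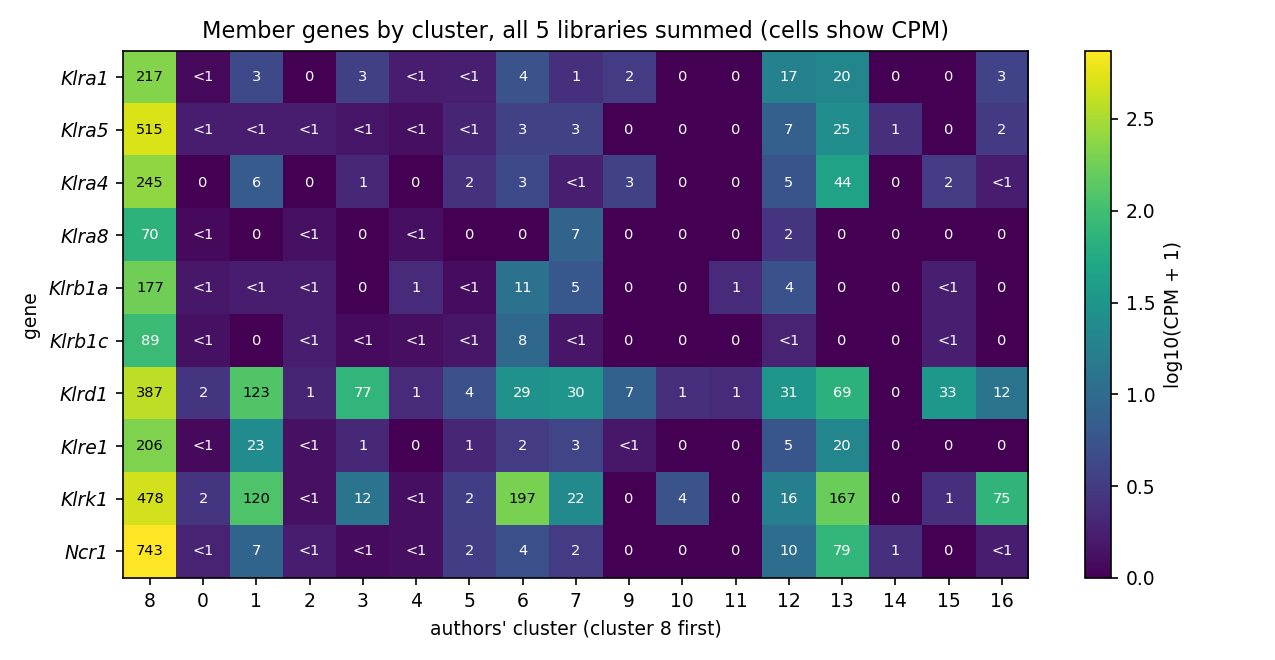
Level of each member gene (rows) in each of the authors' 17 clusters (columns, cluster 8 first), as CPM of all 5 libraries summed; colour is log10(CPM + 1) and the number is the CPM. Cluster 8 holds the highest value of every row, and Klrk1 and Klrd1 also have values above 100 CPM elsewhere.

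The share of a receptor's UMIs that lay in cluster 8 differed widely between the members. Of all UMIs over the 5 libraries, cluster 8 held 93.6% of Klra5, 91.5% of Ncr1, 84.3% of Klra4, 82.0% of Klrb1c, 81.9% of Klrb1a, 79.6% of Klra8, 78.1% of Klra1 and 72.4% of Klre1. It held only 40.5% of Klrk1 and 37.4% of Klrd1. Single libraries were lower for some of the first 8, down to 59.1% of Klrb1a in ICI 1, 62.3% of Klra8 in isotype and 63.6% of Klrb1c in ICI 3. Outside cluster 8, 42.0% of the 674 cells of gamma-delta or type 17 T-like cluster 6 had a Klrk1 UMI, and 275 of these 283 cells (97.2%) held a gamma-delta receptor transcript, against 86.5% of all cells of the cluster. Klrd1 was found in 6.08% of the same cells. Cluster 3, led by Dapl1, Itgae and Ccr7, had Klrd1 in 21.3% of its 879 cells and Klrk1 in 3.19%, but 731 of these cells were of ICI 4. By library, Klrk1 was found in 0%, 36%, 35.3% and 0.684% of cluster 3 cells of ICI 1 to ICI 4 and 3.51% of isotype, and Klrd1 in 9.38%, 32%, 47.1% and 20.4% and in 19.3% of isotype. Cluster 1, led by Gzmk, Ccl5, Itga1 and Ifng, had Klrd1 in 17.9% and Klrk1 in 15.9% of its 1343 cells. Free RNA in the droplets can give such shares a background. In B-like cluster 14 (median 3692.5 UMIs per cell, against 3695 in cluster 8), 0 of 160 cells had a Klrk1 or a Klrd1 UMI, which allows a share of up to 1.88% for each, and 0.625% had one of Ncr1. That cluster held 5 cells each of ICI 2 and ICI 3, which supplied 237 and 247 of the cluster 6 cells, so their background was hardly measured there. Cluster 4, led by Foxp3 and Ctla4, held 48 cells of ICI 2 and 45 of ICI 3. In it, 1 of 850 cells had a Klrk1 UMI and 4 had a Klrd1 UMI. In cluster 0, with 133 and 105 cells of these libraries, 6 of 1557 cells had a Klrk1 UMI and 9 a Klrd1 UMI. The 95% Clopper-Pearson interval, which covers counting error only, was 38.2% to 45.8% for Klrk1 in cluster 6 and 18.6% to 24.1% for Klrd1 in cluster 3.

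Conventional dendritic-like cluster 16, led by Naaa and Xcr1, had a Klrk1 UMI in 56.5% of its 92 cells (95% Clopper-Pearson interval 45.8% to 66.8%). These cells were deep (median 14931 UMIs), and after thinning to 1000 UMIs the share was 13.04%, against 36.8% in cluster 8, 18.8% in cluster 6 and 8.07% in cluster 1. By library, Klrk1 stood at 123, 240, 185 and 59.9 CPM in ICI 1 to ICI 4 and 68.2 in isotype, from 16, 7, 7, 52 and 26 UMIs. Of the 52 cells, 20 held a Cd3 UMI, close to the 38 of 92 in the whole cluster. Ncr1 had 1 UMI, and Klra8, Klrb1a, Klrb1c and Klre1 had 0 UMIs, in cluster 16.

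Patterns over the 17 clusters were most alike within the NK gene complex. As a description, Pearson's r of log2(CPM + 10) over the 17 cluster sums was computed for 10821 other genes with at least 100 UMIs. Points share libraries, and cluster 8 carries most of each r. The nearest gene was Klra9, another Ly49 gene, for Klra5 (r = 0.995) and Klra1 (0.978). It was Klrc3, an NKG2 gene, for Klra4 (0.993) and Ncr1 (0.991), and Klra6 for Klra8 (0.961). Gzmc, a granzyme, was nearest to Klrb1a (0.979) and Klrb1c (0.976), and Klrc2 was nearest to Klre1 (0.992). Klrd1 was nearest to Klrc1 (0.863), the gene of its inhibitory partner chain NKG2A, ahead of Cd160 and Cdh1. Klrk1 had the lowest likeness to NK genes, and its nearest were Wdr95 (0.921), Mgll and Itga1.

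The comparison of ICI with isotype asked whether checkpoint blockade changed these receptors. In NK-like cluster 8 edgeR tested 6992 genes, all 10 members included, and called 0 at an adjusted p under 0.05 (percent called 0). At an unadjusted p under 0.05 it had 165 genes, and DESeq2 called 0 with 73 at that level. Every member had an adjusted p of 0.9999. Isotype lay outside the range of the ICI libraries for 4 members, below it for Klrd1 and above it for Klra8, Klrb1a and Klrb1c, and so it did for 37.4% of all genes tested. Levels below are CPM with TMM scaling, the composition scaling of edgeR, and the isotype library has no replicate, so p-values rest on the spread among the ICI libraries.

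Ncr1 had 1437, 1727, 1416 and 285 CPM in cluster 8 of ICI 1 to ICI 4, against 690 in isotype. Klrk1 had 818, 1077, 888 and 238 CPM in ICI 1 to ICI 4, against 381 in isotype. For both genes ICI 1 to ICI 3 lay above isotype and ICI 4 below it, so the groups overlapped. The log2 fold change was 0.81 (SE 0.84) for Ncr1 and 0.98 (SE 0.76) for Klrk1 by edgeR. Leaving out 1 ICI library at a time, they ran from 0.59 to 1.15 for Ncr1 and from 0.76 to 1.29 for Klrk1. They were highest without ICI 4, at 1.15 (edgeR adjusted p = 0.189) and 1.29 (adjusted p = 0.108). For ICI 4 against isotype alone they were -1.31 and -0.71, with no test. The share of cells with a UMI showed the same split after thinning. Ncr1 was then found in 73.1%, 66.3%, 56.7% and 19.2% of cells of ICI 1 to ICI 4, against 44.7% in isotype, and Klrk1 in 42.3%, 63.0%, 48.9% and 19.2%, against 27.6%. Unthinned, the Ncr1 shares were 59.5%, 77.9%, 70.2% and 51.5% against 69.7%, and those of Klrk1 57.1%, 85.3%, 91.5% and 45.5% against 72.4%. The 95% Clopper-Pearson interval of the Ncr1 share was 43.7% to 59.3% in ICI 4, against 58.1% to 79.8% in isotype. Libraries ICI 1 to ICI 3 are also those with Xist transcripts and without Hbb-bs, and the part of that difference in the result was not tested.

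**Figure D2:**
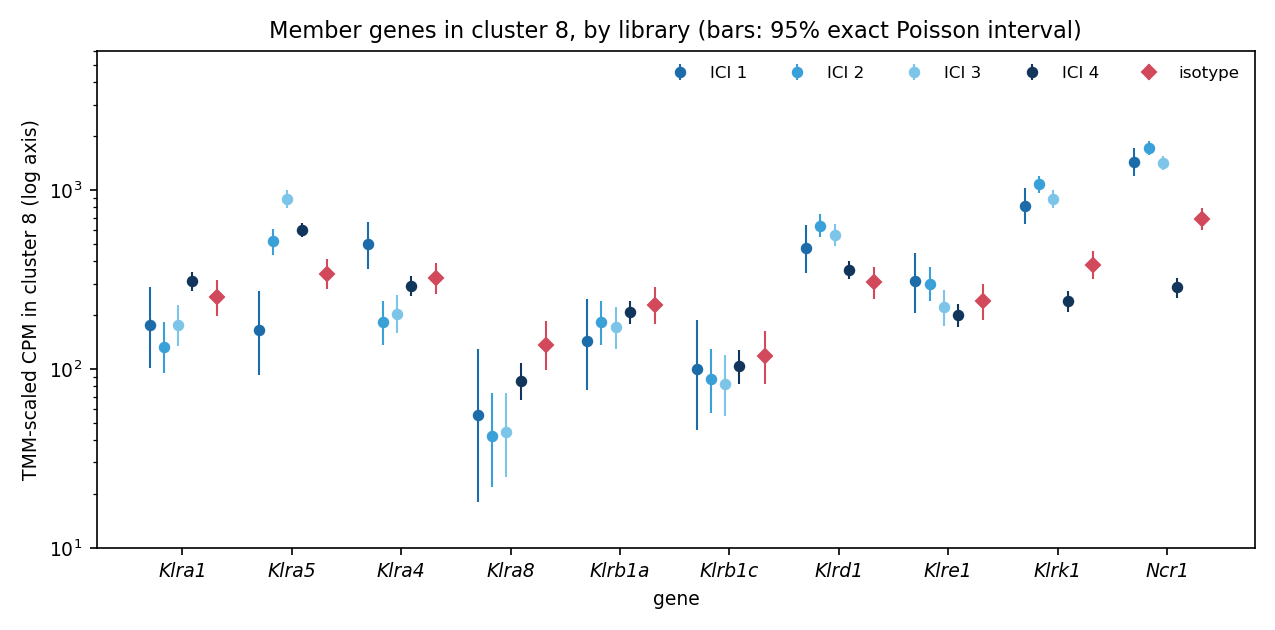
TMM-scaled CPM of each member gene in cluster 8 (log axis), with the 4 ICI libraries (circles) left of the isotype library (diamond) and 95% exact Poisson intervals that cover counting error only. Ncr1 and Klrk1 are high in ICI 1 to ICI 3 and low in ICI 4, Klrd1 is above isotype in 4 of 4 ICI libraries, and Klra8 is below it in 4 of 4.

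Klrd1 was the member whose 4 ICI libraries all lay above isotype, at 475, 632, 560 and 358 CPM in ICI 1 to ICI 4, against 305 in isotype. The groups did not overlap, but ICI 4 lay near isotype, and over all 6992 genes 19.3% had every ICI library above. The log2 fold change was 0.73 (SE 0.51; edgeR adjusted p = 0.9999). Klrc1, which encodes its partner NKG2A, lay the other way, at 464, 446, 375 and 232 CPM in ICI 1 to ICI 4, against 582 in isotype (log2 fold change -0.63, SE 0.49). That all 4 lay below rests on the scaling, since plain CPM put ICI 1 (543) above isotype (499).

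Klra8 lay below isotype in 4 of 4 ICI libraries, with 55.3, 42.1, 44.2 and 85.7 CPM in ICI 1 to ICI 4, against 137 in isotype. The groups did not overlap, and over all genes 18% had every ICI library below. It had few UMIs: 5, 12, 15 and 73 in ICI 1 to ICI 4 and 43 in isotype, where 1 cell held 27.9% of them. The log2 fold change was -1.21 (SE 0.47), with an unadjusted p of 0.0297 and an adjusted p of 0.9999 by edgeR. Without ICI 4 it passed the threshold (log2 fold change -1.60, adjusted p = 0.0117), in a fit that called 325 genes. The share of cells with a Klra8 UMI was 7.14%, 6.32%, 6.38% and 12.6% in ICI 1 to ICI 4, against 14.5% in isotype, so 4 of 4 ICI libraries lay below isotype here too (Clopper-Pearson 7.96% to 18.6% in ICI 4 and 7.45% to 24.4% in isotype). After thinning it was 7.69%, 3.26%, 4.44% and 4.19%, against 3.95%, from 2, 3, 4, 7 and 3 cells, too few to show a difference either way.

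The 2 NKR-P1 genes had the narrowest spread of the members over the ICI libraries, relative to their means. Klrb1a stood at 144, 182, 171 and 208 CPM in ICI 1 to ICI 4, against 229 in isotype, and Klrb1c at 99.5, 87.7, 82.6 and 103, against 118. All 4 ICI libraries lay below isotype for both, though by log2 fold changes of only -0.36 (SE 0.42) and -0.34 (SE 0.42). For Klrb1c this rests on the scaling, since plain CPM put ICI 1 (116) above isotype (101).

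Of the remaining Ly49 genes, Klra5 had 166, 516, 894 and 599 CPM in ICI 1 to ICI 4, against 340 in isotype (log2 fold change 0.70, SE 0.74). Klra1 had 177, 133, 177 and 310 CPM in ICI 1 to ICI 4, against 251 in isotype (-0.31, SE 0.52). Klra4 had 497, 182, 204 and 291 CPM in ICI 1 to ICI 4, against 321 in isotype (-0.17, SE 0.57). In each of these, isotype lay within the range of the ICI libraries, and ICI 1 was the lowest of the ICI libraries in Klra5 and the highest in Klra4. Klre1 had 309, 298, 221 and 200 CPM in ICI 1 to ICI 4, against 238 in isotype (0.09, SE 0.46), again with overlap. Taken as a list, 5 members had a positive and 5 a negative fold change, with a median of -0.04, against 0.04 over all genes tested.

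**Figure D3:**
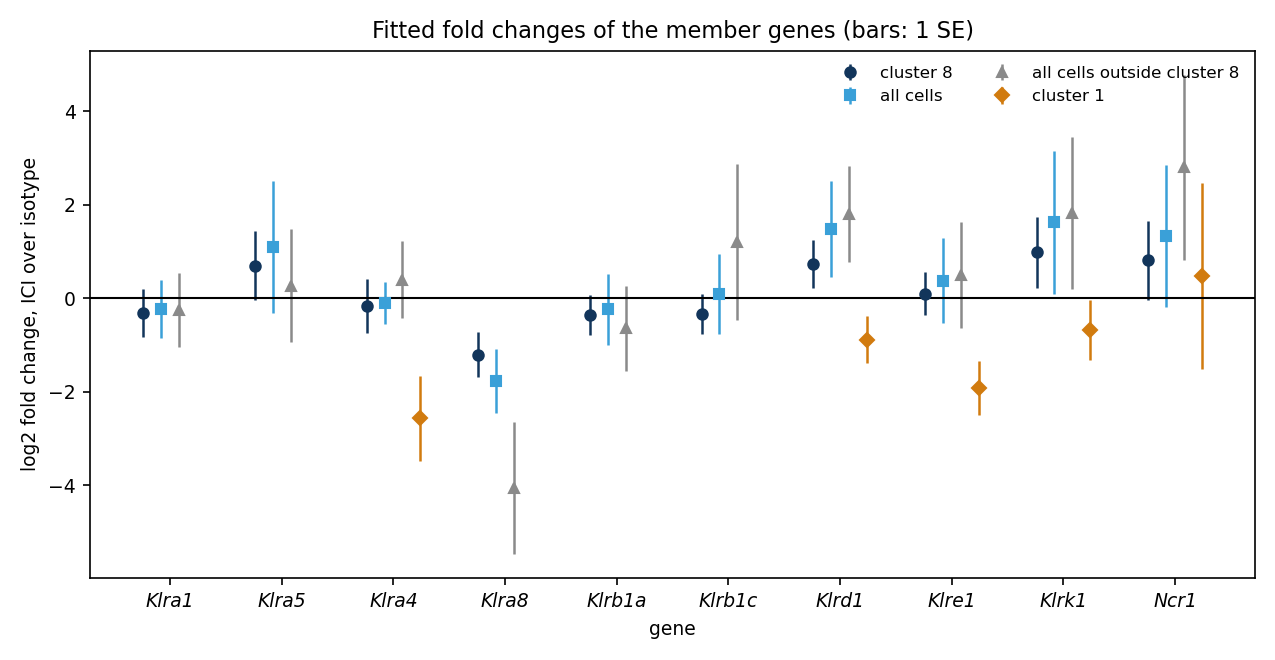
Log2 fold change of each member gene, ICI over isotype, with 1 SE, from edgeR fits to cluster 8, all cells, all cells outside cluster 8 and cluster 1 (5 members tested there). Most bars reach or cross 0, and 0 members passed the threshold in any of the 4 fits.

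Cells of cluster 8 without a Cd3 UMI (10, 22, 12 and 12 cells in ICI 1 to ICI 4, 17 in isotype) had more Ncr1 than those with one in 5 of 5 libraries. In plain CPM, Ncr1 stood at 3496, 3154, 2947 and 392 in cells without Cd3 of ICI 1 to ICI 4 and 995 in isotype, against 1337, 1461, 1235 and 225 in cells with Cd3 and 501 in isotype. Klrk1 and Klrb1c were also higher without Cd3 in 5 of 5 libraries, Klrk1 in ICI 3 only by 881 against 877 CPM. Klra5 was lower without Cd3 in 5 of 5, at 81.3, 197, 152 and 168 CPM in ICI 1 to ICI 4 and 163 in isotype, against 215, 629, 961 and 507 with Cd3 and 320 in isotype. ICI 4 was low in Ncr1 in both kinds of cell. Over all genes, cells without Cd3 held 12299, 55795, 32914 and 53510 UMIs in ICI 1 to ICI 4, and 67350 in isotype. Their Klra5 and Klrb1c values therefore rest on few UMIs in each library. Cells without Cd3 were the shallower ones in each library, and a missing UMI in a shallow cell does not show that Cd3 was absent.

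The Ly49 genes were patchy from cell to cell. Of the 474 cells of cluster 8, 123 had a UMI of 0 of the 4 Ly49 genes, 150 of 1, 110 of 2, 74 of 3 and 17 of all 4. Klra1 and Klra4 were found together in 131 cells, 69.7% of Klra1 cells and 62.1% of Klra4 cells. Of the 47 Klra8 cells, 89.4% also held Klra4 and 42.6% held Klra5. Depth differed between the libraries, and ICI 4 was the deepest in this cluster (median 5554 UMIs per cluster 8 cell, against 1211, 2717 and 3568.5 in ICI 1 to ICI 3 and 4351.5 in isotype). After thinning, at least 1 Ly49 gene was found in 42.3%, 42.4%, 54.4% and 61.7% of cells of ICI 1 to ICI 4, against 40.8% in isotype, and at least 2 in 23.1%, 13.04%, 18.9% and 17.4%, against 11.8%. Unthinned, at least 1 was found in 59.5%, 67.4%, 77.7% and 82.6%, against 67.1%. Thinning left 26 of 42 cells in ICI 1, 92 of 95 in ICI 2, 90 of 94 in ICI 3 and all 167 in ICI 4 and 76 in isotype. Klra1 and Klra4 were found together in 29 thinned cells, where the product of their shares gives 16.0. The other pairs had 24 against 21.9 (Klra1 and Klra5), 6 against 3.20 (Klra1 and Klra8), and 31 against 27.4 (Klra4 and Klra5). Klra4 and Klra8 had 8 against 4.00, and Klra5 and Klra8 had 3 against 5.48. Klra8 reads can share sequence with its copies, so its pairs carry that uncertainty. Reads of 1 NOD Ly49 gene might also fall on 2 mm10 rows, Klra1 and Klra4 included, which was not tested.

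**Figure D4:**
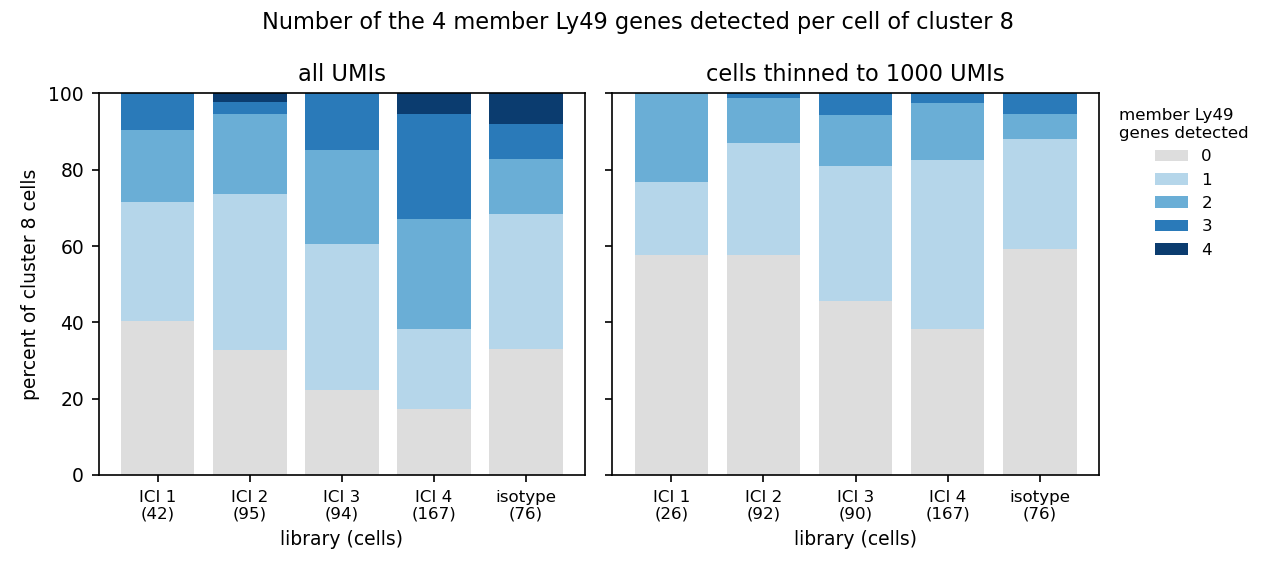
Percent of cluster 8 cells with a UMI of 0 to 4 of the 4 member Ly49 genes in each library, with ICI libraries left of isotype, for all UMIs (left) and after thinning each cell to 1000 UMIs (right). Unthinned, ICI 4 has the lowest share with 0 Ly49 genes, and after thinning the share with at least 1 lies between 40.8% and 61.7%.

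In cluster 1 the comparison asked about the receptors that T cells share with NK cells. Cluster 1 held 392, 313, 270 and 323 cells in ICI 1 to ICI 4 and 45 in isotype, and 5 members had enough counts to test. Of 9337 genes, edgeR called 1 (percent called 0.0107), the thyroglobulin gene Tg, lower in ICI, and 0 members. The other 4 tested members besides Ncr1 lay below isotype in 4 of 4 ICI libraries, which 23.5% of all genes also did (in plain CPM, the highest ICI library equalled isotype for Klrk1, at 177), while 33.2% lay above it in 4 of 4 and 0 members did. Isotype lay outside the ICI range for 4 of the 5 tested members and for 56.7% of all genes. Klrd1 had 88.6, 148, 174 and 84.1 CPM in ICI 1 to ICI 4, against 228 in isotype (log2 fold change -0.88, SE 0.51; edgeR adjusted p = 0.797). Klre1 had 13.3, 31.2, 25.4 and 16.1 CPM in ICI 1 to ICI 4, against 81.8 in isotype (-1.93, SE 0.57; adjusted p = 0.795). The Klre1 gap is the wider one for its spread, yet isotype held only 14 Klre1 UMIs, 21.4% of them in 1 cell. Klrk1 stood at 53.2, 155, 183 and 92.5 CPM in ICI 1 to ICI 4, against 193 in isotype (-0.67, SE 0.64), and its fold change turned to 0.27 when only CD8-gated cells were kept. Klra4 had 2.22, 5.03, 6.09 and 5.61 CPM in ICI 1 to ICI 4, against 29.2 in isotype, from 2 to 8 UMIs per ICI library and 5 in isotype. None of these gaps passed the threshold.

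Within cluster 1 both shared receptors sat in cells with CD8 rather than CD4 transcripts. Klrk1 had 315, 308, 346 and 235 CPM in CD8-gated cells of ICI 1 to ICI 4 and 236 in isotype, against 6.20, 69.5, 24.4 and 6.71 in CD4-gated cells and 121 in isotype. Klrd1 had 415, 338, 329 and 194 CPM in CD8-gated cells of ICI 1 to ICI 4 and 404 in isotype, against 71.3, 41.7, 24.4 and 13.4 in CD4-gated cells and 90.5 in isotype. CD8-gated cells were higher in 5 of 5 libraries for both genes. The isotype gates held only 15 and 10 cells, and its Klrk1 values, from 14 and 4 UMIs, were the closest together. The mean log2 difference, on CPM + 10, was 2.90 ± 1.41 for Klrk1 and 2.72 ± 0.52 for Klrd1 (SD, n = 5). The exact two-sided sign-flip permutation test gave p = 0.063 for each, the smallest that 5 libraries allow, and 0.063 after adjustment over these 2 comparisons. In thinned cells the share with a UMI was higher in CD8-gated cells by 14.96 ± 7.39 percentage points for Klrk1 and 20.9 ± 15.3 for Klrd1.

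**Figure D5:**
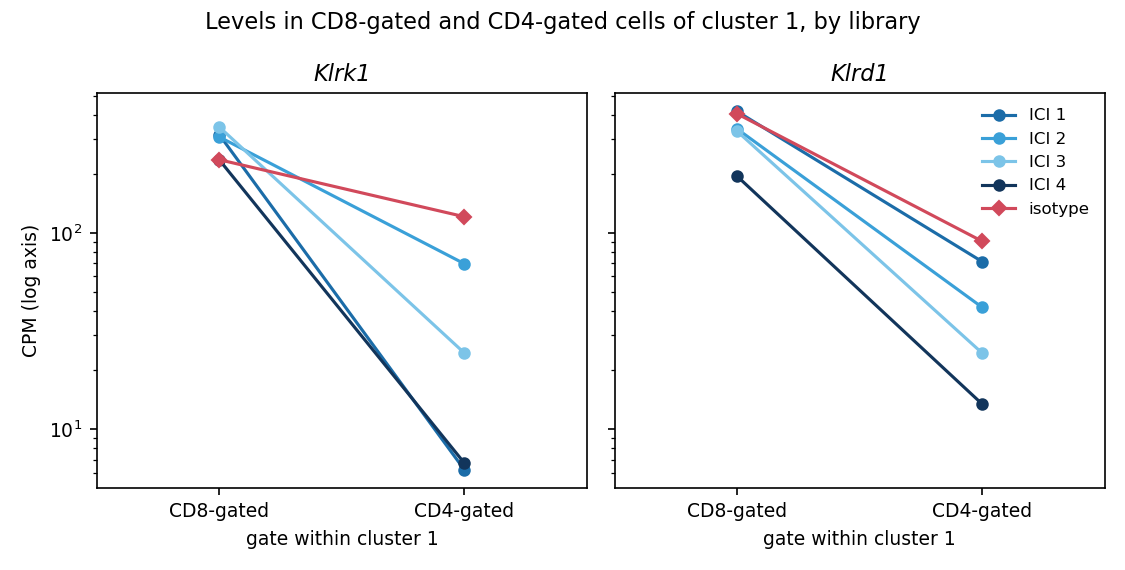
Klrk1 (left) and Klrd1 (right) in CPM (log axis) in CD8-gated and CD4-gated cells of cluster 1, with 1 line per library. The CD8-gated value is the higher one in 5 of 5 libraries for each gene, and the isotype Klrk1 line is the flattest.

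Summed over all cells, edgeR tested 12659 genes and called 0 (percent called 0), with 516 at an unadjusted p under 0.05, and DESeq2 called 38 genes, 0 members among them. In such sums, fewer cells of a type and less RNA per cell cannot be told apart. Klrd1 lay above isotype in 4 of 4 ICI libraries (23.2% of all genes did), at 34.1, 112, 120 and 27.5 CPM in ICI 1 to ICI 4, against 26.1 in isotype (log2 fold change 1.49, SE 1.03). ICI 1 and ICI 4 stood close to isotype, and ICI 2 and ICI 3 well above it. Klra8 lay below it in 4 of 4 (22.5% of all genes did), at 1.05, 3.24, 3.44 and 2.74 CPM in ICI 1 to ICI 4, against 8.99 in isotype (-1.78, SE 0.69; edgeR adjusted p = 0.817). For the other 8 members isotype lay within the ICI range, so it lay outside that range for 2 of 10 members and for 45.7% of all genes. Part of the isotype level came from outside cluster 8, where 26 of its 69 Klra8 UMIs lay, 25 of them in 9 cells of macrophage-like cluster 7. Over all libraries, 13 of 13 Klra8 cells of that cluster held a Cd3 UMI, against 32.9% of its cells. Isotype, with 9 of these Klra8 cells, was a deep library in cluster 7, so the 2 shares are not matched for depth. The ICI libraries held 0, 1, 0 and 11 Klra8 UMIs outside cluster 8. Among all cells outside cluster 8 edgeR called 0 of 12629 genes (percent called 0; 539 at an unadjusted p under 0.05, 45 called by DESeq2), and Klra8 had an adjusted p of 0.7998. Isotype there lay outside the ICI range for 3 of 10 members (Klrd1, Klra8 and Klrb1a) and for 46.3% of all genes. For Klrb1a this rests on the scaling, since plain CPM put ICI 2 (3.35) above isotype (3.09).

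Outside the NK-like cells the library pattern of Klrk1, summed over whole clusters, differed by cluster. In gamma-delta or type 17 T-like cluster 6, Klrk1 had 149, 262, 257 and 48.2 plain CPM in ICI 1 to ICI 4, against 97.4 in isotype. In cluster 3 it had 0, 163, 198 and 1.59 CPM in ICI 1 to ICI 4, against 14.2 in isotype, from 32, 25, 34 and 731 cells of ICI 1 to ICI 4 and 57 of isotype. ICI 1 to ICI 3 lay above isotype and ICI 4 below it in cluster 6, as in cluster 8. In cluster 3 ICI 2 and ICI 3 stood far above all others, and ICI 1 was at 0 from 32 cells. In cluster 1, given above, ICI 1 was the lowest library. CD8-gated cells were 49 of 392, 103 of 313, 105 of 270 and 89 of 323 there in ICI 1 to ICI 4, and 15 of 45 in isotype. Among the gated cells, plain CPM (given above) put ICI 1 to ICI 3 above isotype and ICI 4 just below it. Klrd1 in cluster 3 was at 30.4, 188, 198 and 71.6 CPM in ICI 1 to ICI 4, against 71.1 in isotype.

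Genes that work with the receptors were compared in the same cluster 8 fit, where 0 genes of any list passed the threshold. Among 18 tested adaptor and signalling genes, 10 fold changes were positive and 8 negative, with a median of 0.03. Tyrobp, the adaptor of Ly49D and Ly49H, had 475, 484, 333 and 349 CPM in ICI 1 to ICI 4, against 594 in isotype, below it in 4 of 4 (-0.54, SE 0.45). In plain CPM, ICI 1 (556) lay above isotype (510). Hcst, the adaptor of NKG2D, had 464, 769, 841 and 672 CPM in ICI 1 to ICI 4, against 747 in isotype, which lay inside that range. All 6 tested ligand genes of the members had a positive fold change, with a median of 0.53, and 4 of them lay above isotype in every ICI library. Over all 6992 genes, 3719 had a positive fold change and 19.3% lay above isotype in every ICI library. H2-T23, among these, encodes the ligand of CD94 and NKG2A, at 431, 284, 292 and 207 CPM in ICI 1 to ICI 4, against 188 in isotype. The 3 other tested Ly49 genes had fold changes of -0.07 (Klra7), 0.01 (Klra9) and -0.01 (Klra6). Among 11 other lectin-like receptors 6 were positive and 5 negative, with a median of 0.14, and among 16 other NK receptor genes 12 were positive, with a median of 0.36. Cytotoxic and cytokine genes had 9 positive and 7 negative fold changes (median 0.09), and the NK and innate lymphoid transcription factors 7 and 6 (median 0.08).

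Of the other named genes, 4 are given for their wide gaps between libraries in cluster 8, chosen after their values were seen. Cxcr6, a chemokine receptor of tissue-resident lymphocytes, had 1470, 1460, 1935 and 310 CPM in cluster 8 of ICI 1 to ICI 4, against 305 in isotype. Klf2, a transcription factor of circulating lymphocytes, had 99.5, 80.7, 73.7 and 379 CPM in ICI 1 to ICI 4, against 582 in isotype. ICI 4 thus lay near isotype in both, and ICI 1 to ICI 3 lay far from it on opposite sides. Cd226, an activating receptor, had 729, 460, 395 and 77.5 CPM in ICI 1 to ICI 4, against 140 in isotype. Id2, which innate lymphoid cells need, had 740, 1088, 1139 and 197 CPM in ICI 1 to ICI 4, against 242 in isotype. The 8 tested circulation genes had 3 positive and 5 negative fold changes (median -0.56), and the list summed to 1267, 643, 670 and 1138 plain CPM in ICI 1 to ICI 4, against 1363 in isotype. The 12 residency genes had 6 positive and 6 negative fold changes (median 0.02). Their list summed to 6733, 6911, 6671 and 3261 plain CPM in ICI 1 to ICI 4, against 3418 in isotype.

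Markers of other cells in cluster 8 were looked at beside these results. The summed level of 10 T cell genes was 3691 to 5896 CPM over the ICI libraries, against 3679 in isotype, with 0 of 10 at 0 in any library. Macrophage genes summed to 8.74 to 47.8 CPM in ICI libraries and to 24.5 in isotype, with 3 to 10 of the 12 genes at 0 in an ICI library and 7 in isotype. B cell genes summed to 110 to 390 CPM in ICI libraries and to 131 in isotype, and Cd79a was at 0 in all but ICI 1. Red cell genes summed to 7117 CPM in ICI 4 and 49.1 in isotype, and were at 0 in ICI 1 to ICI 3. Several other lists had higher sums in ICI 4 and isotype than in ICI 1 to ICI 3. Heat shock genes summed to 2546, 2426, 2439 and 4142 CPM in ICI 1 to ICI 4, against 3873 in isotype, and cycling genes to 64.6, 114, 192 and 447, against 477. Naive T cell genes summed to 762, 386, 335 and 987 CPM in ICI 1 to ICI 4, against 1077 in isotype, and thymocyte genes to 388, 210, 265 and 579, against 692. The part of these transcripts in the results was not tested.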

How the data were processed

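CD45+ thyroid cells of NOD mice were profiled by 10x Genomics 5′ single-cell sequencing (gel bead version v3), per the labels. The submitters' processing notes name Cell Ranger, Seurat and build mm10; versions are not given in the sources used here. The authors' deposited table holds raw UMI counts per gene and cell, and the sums equalled the totals of the deposited cell table in 10275 of 10275 cells. That cell table gives each cell's library and cluster. The 10 members and all gene lists were chosen with earlier results of these data known.

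For each library, counts were added up over all cells, cluster 8, cluster 1 and all cells outside cluster 8. edgeR 4.0.16 (quasi-likelihood test, TMM scaling, filterByExpr with a minimum count of 10, Benjamini-Hochberg adjustment over all genes tested, threshold 0.05) compared 4 ICI libraries with 1 isotype library. Isotype's own spread is unknown and was taken to equal that of ICI. Mice were pooled, so p-values measure the spread between these libraries, which may be technical. Alternatives were DESeq2 1.42.0, RLE scaling, omission of the filter or of 1 ICI library at a time, ICI libraries summed, ICI 4 against isotype alone, 1 copy of shared barcodes, each gene's highest cell left out, and gates on Cd3 (cluster 8) or CD8 (cluster 1). The edgeR and DESeq2 steps were tested on simulated data.

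The CD8 and CD4 gates in cluster 1 were set on transcripts of the coreceptors, and libraries were compared by exact sign-flip permutation. Shares of cells were also computed with each cell thinned to 1000 UMIs, which left out 303, 101, 159 and 33 cells of ICI 1 to ICI 4 and 21 of isotype. No doublet caller was run, and whether doublets were removed upstream is not stated. Clusters were given type names only from marker lists (10 leading genes by fold and genes at 1.5-fold or more). Named genes were the members and up to 4 genes per list with the most UMIs in cluster 8. For likeness of pattern, the 3 genes with the highest Pearson r per member were ranked. Tg was named because it was the only gene called in its comparison. Cell numbers in the labels (1688, 1234 and 1178 for ICI 1 to ICI 3) exceed those of the table. Intervals are 95% Clopper-Pearson intervals, and a count of 0 was given the limit of 3 counts.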

Additional observations from a re-analysis of the deposited data

Results flagged for a closer look

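Klrd1 lay on opposite sides of isotype in the 2 clusters compared most closely. In NK-like cluster 8 all 4 ICI libraries lay above isotype (log2 fold change 0.73), and in cluster 1 all 4 lay below it (log2 fold change -0.88). Neither value passed the edgeR threshold, and the difference between the clusters was not tested. In cluster 1 the gap was smaller in CD8-gated cells, at -0.45. There plain CPM put ICI 1 above isotype and ICI 2 to ICI 4 below it. CD8-gated cells were 49 of the 392 cluster 1 cells of ICI 1 and 15 of the 45 of isotype. For 25 sets of 4 ICI libraries (members tested over all cells, cluster 8 and cluster 1), the distance of the highest or lowest library from the others was compared with Dixon's critical value, which chance passes in about 1 of 20 sets, and 0 of the 25 passed.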

How the results depend on the processing

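The counts of called genes depended on ICI 4. Leaving out 1 ICI library gave 0 to 210 genes over all cells, 0 to 325 in cluster 8, 1 to 58 in cluster 1 and 0 to 237 outside cluster 8, in each case with the highest count without ICI 4. DESeq2 called 38 genes over all cells, 4 in cluster 1 and 45 outside cluster 8. Without the filter on low counts there were 3 in cluster 8 and 5 in cluster 1. Omitting the highest cell of a gene in each library, there was 1 over all cells, 1 outside cluster 8 and 0 in cluster 1. The causes were not tested. Of the members, Klra8 in cluster 8 without ICI 4 passed the threshold and no other did so under any alternative with a test.

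No member fold change that changed direction had passed the threshold. Leaving out 1 library, the log2 fold change ran over all cells from -0.52 to 0.0045 (Klra1), -0.28 to 0.041 (Klra4), -0.49 to 0.021 (Klrb1a) and -0.30 to 0.33 (Klrb1c), in cluster 8 from -0.49 to 0.016 (Klra4), in cluster 1 from -0.012 to 0.88 (Ncr1), and outside cluster 8 from -0.45 to 0.52 (Klra5). With the highest cell left out it was 0.0053 (Klra4) and -0.0054 (Klrb1c) over all cells, and 0.42 (Klra1) and -0.036 (Klra5) outside cluster 8. Summing ICI 2 and ICI 3 gave -0.13 for Klrb1c over all cells. Summing ICI 1 to ICI 3 gave -0.16 for Klrb1c over all cells, -0.049 for Klre1 in cluster 8 and -0.026 for Klra5 outside it. Without Cd3 cells in cluster 8, where 1775 genes and 9 members were tested, it was 1.40 (Klra1), -0.16 (Klra5), 0.62 (Klrb1c) and -0.62 (Klre1). CD8-gated cells gave 0.27 for Klrk1 in cluster 1.

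The difference between CD8-gated and CD4-gated cells kept its direction under every alternative. Leaving out 1 library it ran from 2.54 to 3.39 for Klrk1 and from 2.58 to 2.89 for Klrd1, with an exact p of 0.125, the smallest that 4 libraries allow. For ICI against isotype no paired analysis was possible, because the isotype group has 1 library and the labels give the groups no shared replicate numbers. The single isotype library, its 76 cells in cluster 8 and the few UMIs of Klra8 and Klrb1c limit what these comparisons can show.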

Other observations

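Klra8 was found in macrophage-like cluster 7 of isotype, with 25 UMIs in 9 of 129 cells, against 0, 1, 0 and 3 UMIs in 104, 181, 162 and 45 cells of ICI 1 to ICI 4. Klrb1a and Klre1 lay there too in isotype, with 17 and 11 UMIs, against 3 and 1 over the ICI libraries together. Ncr1 had 2 UMIs in those isotype cells. Over all libraries, a Cd3 UMI was found in 13 of 13 Klra8 cells, 14 of 14 Klrb1a cells and 5 of 5 Klre1 cells of the cluster, against 32.9% of its 621 cells. Myeloid transcripts were found in all of these carriers too, and in 93.4% of the cluster. No doublet caller was run, and the part of doublets was not tested. ICI 4 and isotype were the deep libraries in this cluster, with medians of 8726 and 9932 UMIs per cell, against 3403 to 3471.5 in ICI 1 to ICI 3, so counts per cell are not comparable. The Cd3 shares of carriers and of the whole cluster are likewise not matched for depth. Klra8 stood at 0, 1.40, 0 and 5.95 CPM in ICI 1 to ICI 4, against 15.7 in isotype.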
